A study of Homo sapiens with 4 samples.

Results

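The loops described here are the longest of the cohesin loops listed for GM12878 cells, those whose anchors lie 500 kb or more apart. They were taken by span alone from 4 deposited loop lists, on chromosomes 1 to 22 and X, whatever their counts, and make up 982 of the 41846 loops listed in any library. GM12878 is a B lymphoblastoid line transformed by Epstein-Barr virus, and the loops were mapped by HiChIP, which ligates chromatin that is close in space and then precipitates it with an antibody, here to the cohesin subunit SMC1. The APH library comes from cells given 0.4 µM aphidicolin, an inhibitor of replicative DNA polymerases, for 18 h, and the DMSO library from cells given its solvent. The HU library comes from cells given 0.2 mM hydroxyurea, which depletes deoxynucleotides, for 18 h, and the H2O library from cells given water. Another lymphoblastoid line is named in the sample titles, but the other labels all say GM12878. Each group has 1 library, so every comparison is between libraries, with no replicate check and no p-value. The intervals given are 95% exact intervals. Those of ratios cover counting error only, and those of shares treat each loop or anchor as independent, although many loops share an anchor. The reads carry no molecular identifiers, so that copies of 1 molecule may be counted more than 1 time.

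Cohesin is a ring-shaped complex that draws chromatin into a growing loop until it is released or meets a barrier. The usual barrier in vertebrates is CTCF, a zinc finger protein, and the CTCF sites at both ends of a loop most often point towards each other. Long loops need cohesin to stay on chromatin and to pass or skip the barriers between the anchors. Cohesin also holds sister chromatids together behind the replication fork, and its acetylation is coupled to replication.

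Only a part of the anchors could be read as sequence, because promoter sequence was the only sequence at hand. It came from RefSeq (GRCh38.p14, the same build as hg38), as windows of 300 bases that lie wholly within an anchor bin of 5 kb. A core of the CTCF motif, CCANNAGNNGGC with N for any base, was searched on both strands. It was present in 558 of 22011 promoters (2.54%) and in 3 of the 102 promoters inside anchors of loops of 500 kb or more (2.94%). The 3, of STAG1, ALKBH2 and SLC14A2, all lay in right anchors, and all their matches ran on the reverse strand of the genome, towards the left anchor. In loops of 250 to 500 kb the matches in left anchors were 10 forward and 2 reverse, and those in right anchors 0 forward and 9 reverse. In loops under 100 kb the orientations were more mixed, with 44 forward and 29 reverse in left anchors and 25 forward and 50 reverse in right anchors. A match describes these letters only and is not a measured binding site.

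The promoters of STAG1 and SLC14A2 are shown because they hold such a match, and those of HOXD8 and MARCKS because they sit inside anchors of loops described below. STAG1 (chr3:136752329-136752628, minus strand) encodes a cohesin subunit. SLC14A2 (chr18:45212745-45213044, plus strand) encodes a urea transporter. HOXD8 (chr2:176129455-176129754, plus strand) is a homeobox gene of the HOXD cluster, and MARCKS (chr6:113857095-113857394, plus strand) encodes an actin-binding substrate of protein kinase C. Sequences run 5′ to 3′ on the strand of the gene, capitals mark matches of the CTCF core on either strand, and HOXD8 and MARCKS hold none.
STAG1: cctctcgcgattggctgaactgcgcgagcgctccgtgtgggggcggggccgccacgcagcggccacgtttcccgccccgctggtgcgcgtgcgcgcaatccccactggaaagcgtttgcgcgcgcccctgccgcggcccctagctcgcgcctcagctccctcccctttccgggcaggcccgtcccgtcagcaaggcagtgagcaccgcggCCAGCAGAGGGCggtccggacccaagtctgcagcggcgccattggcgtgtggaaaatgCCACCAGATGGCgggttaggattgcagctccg
SLC14A2: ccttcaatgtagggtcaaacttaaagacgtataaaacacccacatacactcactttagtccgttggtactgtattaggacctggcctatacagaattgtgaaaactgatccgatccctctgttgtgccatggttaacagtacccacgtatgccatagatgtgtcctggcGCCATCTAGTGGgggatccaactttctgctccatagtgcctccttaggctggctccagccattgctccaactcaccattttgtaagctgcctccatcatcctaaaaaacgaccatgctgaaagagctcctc
HOXD8: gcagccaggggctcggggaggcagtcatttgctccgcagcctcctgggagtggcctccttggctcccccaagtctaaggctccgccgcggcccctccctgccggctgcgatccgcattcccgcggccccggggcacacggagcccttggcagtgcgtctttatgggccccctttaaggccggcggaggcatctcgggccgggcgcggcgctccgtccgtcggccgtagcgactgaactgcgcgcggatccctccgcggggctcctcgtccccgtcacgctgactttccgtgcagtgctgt
MARCKS: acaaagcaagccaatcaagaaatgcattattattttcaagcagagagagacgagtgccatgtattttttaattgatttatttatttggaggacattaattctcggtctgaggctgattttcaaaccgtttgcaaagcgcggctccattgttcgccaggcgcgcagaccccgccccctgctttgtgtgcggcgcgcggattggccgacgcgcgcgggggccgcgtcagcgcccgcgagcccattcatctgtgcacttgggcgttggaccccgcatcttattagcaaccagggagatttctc

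The loop with the STAG1 promoter in its right anchor spans 675 kb from PPP2R3A, which encodes a regulatory subunit of protein phosphatase 2A. It had 18 counts in DMSO, 17 in HU and 14 in H2O and was not listed in APH. An unlisted loop is not a loop without contacts, since the lists start at 12 counts and hold called loops only. A loop of 620 kb joined another part of STAG1, away from that promoter, to IL20RB, a cytokine receptor gene. It had 13 counts in DMSO and was listed in no other library. The loop of 935 kb that joins PPP2R3A and IL20RB across STAG1 was listed in all 4 libraries. Its counts were 29 in APH, 33 in DMSO, 25 in HU and 34 in H2O. At SLC14A2, a loop of 535 kb had 36 counts in APH, 28 in DMSO, 24 in HU and 34 in H2O.

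The APH list held 566 loops of 500 kb or more among 27395 (2.07%, 1.90 to 2.24), the DMSO list 522 among 17660 (2.96%, 2.71 to 3.22), the HU list 489 among 21448 (2.28%, 2.08 to 2.49), and the H2O list 641 among 22446 (2.86%, 2.64 to 3.08). The APH list was thus the longest but gave the smallest share. Of the 982 loops, 441 spanned under 600 kb, 236 spanned 600 to 700 kb, 137 spanned 700 to 800 kb, 98 spanned 800 to 900 kb, and 70 spanned 900 kb or more, up to the 1000 kb at which the lists end. The limit falls within a continuous range, with 27 loops at exactly 500 kb and 46 at 495 kb. Their median counts were 15 in APH, 15.5 in DMSO, 17 in HU and 19 in H2O at 500 kb, and 15.5 in APH, 15 in DMSO, 16 in HU and 16.5 in H2O at 495 kb.

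These loops rested on few contacts that stood far above the local expectation. Their median count was 16 in APH, 15 in DMSO, 15 in HU and 16 in H2O, against 20 for all listed loops in each library. The deposited count was a median of 9.75 times the expected count in APH, 9.85 times in DMSO, 9.65 times in HU and 9.99 times in H2O. Over all listed loops these medians were 4.98 in APH, 5.68 in DMSO, 5.22 in HU and 5.22 in H2O. The expected count for a very long pair was 1.71 in APH at the median, 1.62 in DMSO, 1.62 in HU and 1.62 in H2O, so that the minimum of 12 counts already lies far above it.

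The loops with most counts give the clearest values. Among them was a loop of 540 kb on chromosome 11, from a bin 9.40 kb from TPCN2, which encodes an endolysosomal cation channel, to CCND1 (chr11:69640001-69645000), the gene of cyclin D1. It had 75 counts in APH, 85 in DMSO, 89 in HU and 103 in H2O. Scaled by each library's total over the loops listed in all 4, these counts gave log2 ratios of -0.51 (-0.98 to -0.04) for APH over DMSO and -0.19 (-0.62 to 0.23) for HU over H2O. The loop of 525 kb between RAB38, a small GTPase gene of pigment granule transport, and the glutamate receptor gene GRM5 had 69 counts in APH, 72 in DMSO, 69 in HU and 78 in H2O. A loop of 730 kb between the collagen gene COL26A1 and CUX1, a homeobox transcription factor gene, had 58 counts in APH, 63 in DMSO, 69 in HU and 74 in H2O. Against its vehicle each drug library had fewer raw counts at the CCND1, GRM5 and CUX1 loops, although the APH library had the largest total. EGF, the epidermal growth factor gene, and ENPEP, which encodes an aminopeptidase, were joined over 520 kb by 58 counts in APH, 56 in DMSO, 55 in HU and 60 in H2O. Another 4 of the loops with most counts had at least 1 anchor on no gene. That of 555 kb near KLF3 had 63 counts in APH, 46 in DMSO, 46 in HU and 55 in H2O. That of 500 kb near GADD45G had 53 in APH, 41 in DMSO, 41 in HU and 57 in H2O. That of 500 kb near LBH had 40 in APH, 52 in DMSO, 45 in HU and 49 in H2O. The loop of 595 kb ending on EPB41L4A, a gene of a membrane skeleton protein family, had 53 counts in APH, 43 in DMSO, 31 in HU and 57 in H2O, which made the HU library its lowest and HU over H2O -0.86 (-1.54 to -0.21).

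**Figure D1:**
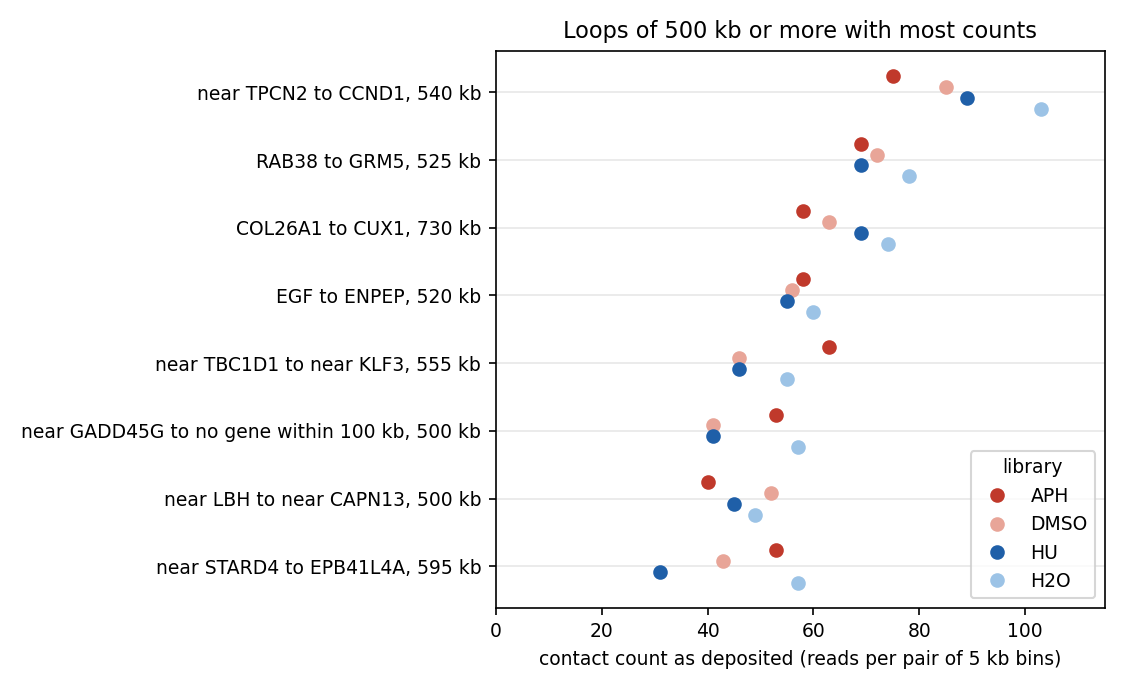
Contact counts as deposited (x axis, reads per pair of 5 kb bins) of 8 of the 10 loops of 500 kb or more with most counts, each with its span and its anchors' genes on the y axis and 1 point per library. The loop that ends on CCND1 has most, at 75 to 103 counts, and H2O has more counts than HU at each of the 8 loops.

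Of the 982 loops, 240 (24.4%) were listed in all 4 libraries, 159 in 3, 198 in 2 and 385 (39.2%) in 1, against 22.8% in all 4 and 45.8% in 1 for all listed loops. The loops listed in 1 library alone were weak, with at most 19 counts in APH, 22 in DMSO, 16 in HU and 22 in H2O. Loops of 500 kb or more that were listed in both drug libraries and no vehicle numbered 35 of 2380 (1.47%, 1.03 to 2.04). Those listed in both vehicles and no drug library numbered 46 of 849 (5.42%, 3.99 to 7.16). The largest share of very long loops was among the 619 loops that only the APH list left out, 46 of them (7.43%, 5.49 to 9.79). Among the 1473 loops that only the HU list left out, the share was 2.51% (1.77 to 3.45). Missing from the DMSO list alone were 52 of 2050 (2.54%), and missing from the H2O list alone were 24 of 1223 (1.96%).

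**Figure D2:**
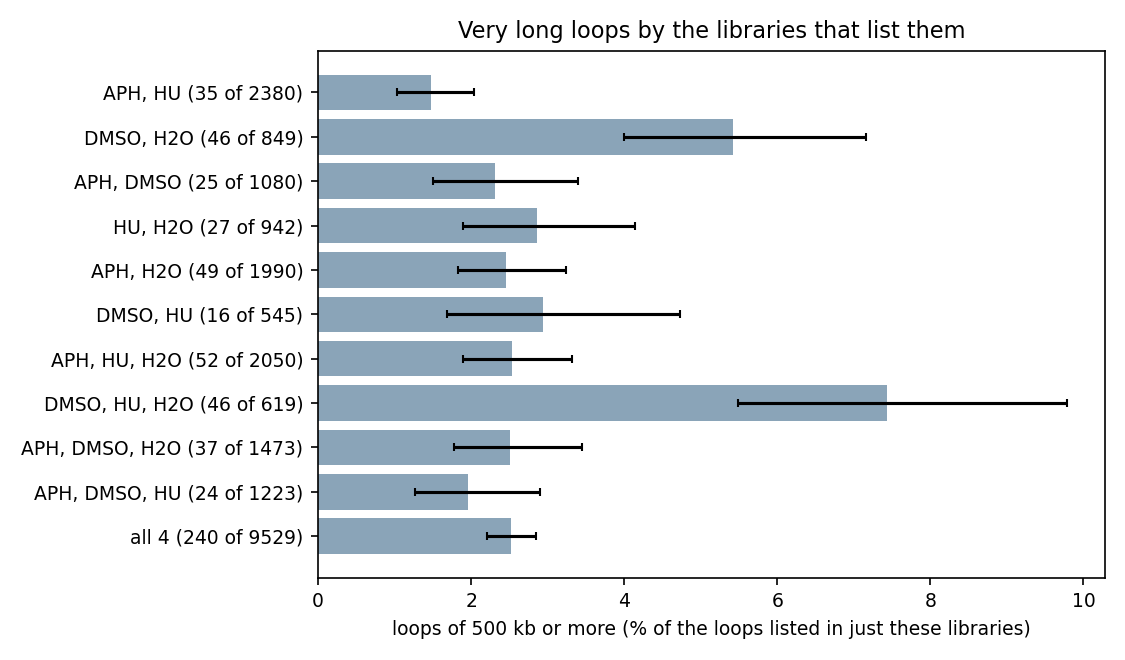
Loops of 500 kb or more as a share (x axis, %) of all loops listed in just the 2 or more libraries named on the y axis, with exact binomial intervals and the loops counted. The 2 longest bars are the loops that only the APH list left out (7.43%) and those listed in DMSO and H2O alone (5.42%), and the shortest are those listed in APH and HU alone (1.47%).

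Sharing was also counted from list to list. Of the very long loops of the DMSO list, 62.5% (58.1 to 66.6) recurred in the APH list and 70.7% (66.6 to 74.6) in the H2O list. For all loops of the DMSO list it was the other way round, with 75.3% listed in APH and 70.6% in H2O. Of the very long loops of the HU list, 74.6% (70.5 to 78.4) were listed in H2O and 71.8% (67.6 to 75.7) in APH, against 61.3% in H2O and 70.8% in APH for all loops of that list. Loops of 250 to 500 kb of the HU list were near this, with 73.0% listed in H2O and 75.7% in APH. For that span class of the DMSO list, 74.8% were listed in APH and 75.9% in H2O. Very long loops had fewer counts than others, so the same was computed at matched counts. Among loops with 12 to 19 counts only, 50.0% (44.8 to 55.2) of the very long loops of the DMSO list were listed in APH, against 62.5% (61.5 to 63.5) of all loops with such counts. In that range of counts, 67.0% (61.9 to 71.8) of the very long loops of the HU list were listed in H2O, against 44.9% (44.0 to 45.9) of all. The other 4 pairs of lists compared did not show very long loops as less often shared at these counts. Listed in APH were 62.6% (57.4 to 67.6) of the very long loops of HU, against 56.9% of all, and listed in DMSO were 41.8% (36.8 to 46.8) of those of APH, against 27.6% of all. H2O listed 60.8% of the very long loops of DMSO, against 56.0% of all, and HU listed 44.6% of those of H2O, against 41.0% of all.

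The loops with most counts of each kind were weak too. Listed in both drug libraries and no vehicle were a loop of 625 kb from JAK1, a cytokine receptor kinase gene, with 19 counts in APH and 18 in HU, a loop of 570 kb within the phosphodiesterase gene PDE4D, with 16 in APH and 20 in HU, and a loop of 615 kb with no gene on either anchor, with 15 in APH and 20 in HU. Listed in both vehicles and no drug library were a loop of 715 kb to the potassium channel gene KCNQ5, with 22 counts in H2O and 20 in DMSO, and a loop of 520 kb from NCOA2, a nuclear receptor coactivator gene, to LACTB2 and XKR9, with 23 in H2O and 18 in DMSO. Another, of 590 kb near TARBP1, had 22 counts in H2O and 18 in DMSO. All 6 had 15 to 23 counts in the lists that held them. Near TARBP1 the loop of 585 kb, from the same left bin to the adjoining right bin, was listed in all 4 libraries. Its counts, given below, were highest in APH. At KCNQ5 the neighbouring loop of 720 kb, whose right anchor is the adjoining bin, was listed in all 4 libraries, with 24 counts in APH, 36 in DMSO, 31 in HU and 29 in H2O, so that the absence of the loop of 715 kb from a list is not the absence of contact between these places.

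Levels could be compared at the 240 loops listed in all 4 libraries. They had 5933 counts in APH, 5581 in DMSO, 5323 in HU and 6024 in H2O. Scaled by the totals over all 9529 loops listed in all 4, the very long loops had a log2 ratio of -0.24 (-0.29 to -0.19) for APH over DMSO and -0.16 (-0.22 to -0.11) for HU over H2O, and of -0.01 (-0.06 to 0.05) for H2O over DMSO. The single ratios lay below 0 at 173 of 240 loops for APH over DMSO, at 150 for HU over H2O and at 125 for H2O over DMSO. In the same order these are 72.1%, 62.5% and 52.1%, against 68.4%, 59.1% and 53.7% of loops of 250 to 500 kb. Both drug libraries were below both vehicle libraries at 89 of the 240 loops (37.1%) and above both at 15 (6.25%). Over all 9529 loops 22.2% had both drug libraries below both vehicles and 19.9% above, and over loops of 250 to 500 kb 32.1% below and 10.1% above. By chromosome, the pooled ratio was below 0 on 20 of 22 chromosomes for APH over DMSO, on 19 for HU over H2O and on 12 for H2O over DMSO, with no shared very long loop on chromosome 19.

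Much of this is shared with loops of the next shorter class. Loops of 250 to 500 kb had -0.18 (-0.20 to -0.15) for APH over DMSO and -0.13 (-0.15 to -0.11) for HU over H2O. With the counts scaled by that class instead, the very long loops had -0.06 (-0.12 to -0.01) for APH over DMSO and -0.03 (-0.09 to 0.02) for HU over H2O. Under the main scaling, loops under 100 kb had 0.08 (0.07 to 0.09) in both drug comparisons. Loops of 100 to 250 kb had -0.04 for APH over DMSO and -0.06 for HU over H2O. Each ratio is relative to a total over all spans, so none measures an absolute gain or loss. The pooled ratio of the very long loops was also divided by the ratio of their summed expected counts, scaled in the same way. This gave -0.07 (-0.13 to -0.02) for APH over DMSO, -0.20 (-0.25 to -0.14) for HU over H2O and 0.13 (0.07 to 0.18) for H2O over DMSO.

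Within the very long loops, the drug libraries parted at the far end. Loops of 500 to 600 kb had -0.23 (-0.30 to -0.16) for APH over DMSO and -0.24 (-0.32 to -0.17) for HU over H2O. Loops of 800 to 900 kb had -0.19 (-0.38 to 0.01) for APH over DMSO and 0.09 (-0.10 to 0.28) for HU over H2O, and loops of 900 kb or more had -0.31 (-0.54 to -0.07) for APH over DMSO and 0.07 (-0.16 to 0.30) for HU over H2O. With the loops split at 800 kb, a limit chosen after these values were seen, the 37 longer loops had 805 counts in HU and 769 in H2O, a log2 ratio of 0.08 (-0.06 to 0.23). The 203 shorter loops had 4518 counts in HU and 5255 in H2O, a log2 ratio of -0.20 (-0.26 to -0.14). The difference between these ratios was 0.28 (0.13 to 0.44) on the log2 scale for HU over H2O, 0.00 (-0.16 to 0.16) for APH over DMSO and -0.01 (-0.17 to 0.15) for H2O over DMSO. With DMSO in place of H2O the difference for HU was 0.28 (0.12 to 0.44). With the split at 700 kb the difference for HU over H2O was 0.17 (0.04 to 0.29), and it was 0.25 (0.08 to 0.41) without the immunoglobulin lambda locus. HU was lower than H2O at 14 of the 37 loops (37.8%) and at 136 of the 203 (67.0%), while APH was lower than DMSO at 27 of the 37 (73.0%) and at 146 of the 203 (71.9%).

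**Figure D3:**
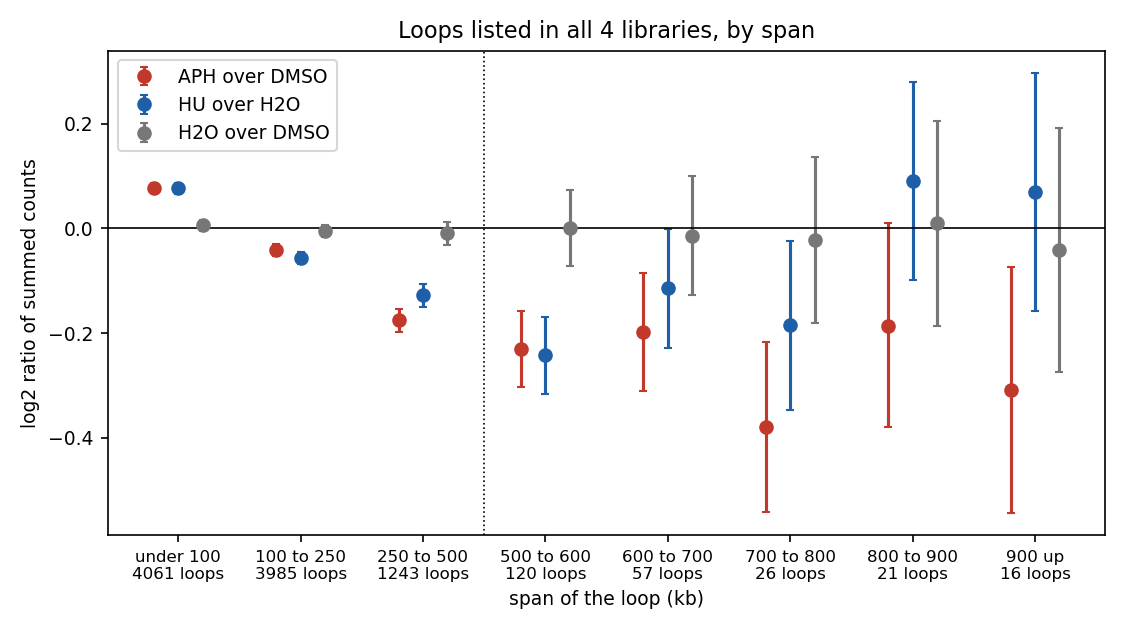
Log2 ratio of summed, scaled counts (y axis) of the loops listed in all 4 libraries, by span (x axis, kb, with the number of loops), for 3 comparisons of libraries, with 95% intervals of counting error. Right of the dotted line at 500 kb the APH over DMSO points stay below 0, while HU over H2O moves from -0.24 at 500 to 600 kb to 0.09 at 800 to 900 kb, and H2O over DMSO stays between -0.04 and 0.01.

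A scaled change of at least 1.5-fold was the rule for calling single loops, and its yield over all 9529 shared loops is the background. For APH over DMSO, 7 very long loops were called higher (background 6.59%) and 43 of 240 lower (17.9%, 13.3 to 23.4, background 7.87%). Loops of 250 to 500 kb were called lower in 15.8%. Scaling by all listed loops, which shifts every ratio of this comparison by -0.38, gave 1 very long loop higher (0.798% of all shared loops) and 129 lower (53.8%, against 31.6% of all shared loops). For HU over H2O, 14 were called higher (background 8.42%) and 31 lower (12.9%, 8.95 to 17.8, background 8.61%), against 14.6% lower in loops of 250 to 500 kb. For H2O over DMSO, 14 were called higher (background 5.5%) and 18 lower (background 5.34%). The counting interval of the ratio lay wholly above 0 at 0 loops (background 2.76%) and wholly below 0 at 15 (background 2.74%) for APH over DMSO. These numbers were 3 (background 3.92%) and 8 (background 3.45%) for HU over H2O, and 2 (background 1.26%) and 4 (background 1.36%) for H2O over DMSO. The median count of the 240 loops was 21.5 in APH, 20 in DMSO, 19 in HU and 22 in H2O, and at most of the loops called the interval of the ratio included 0. The background was not matched for counts. Its loops had a higher mean count in each library, and loops with fewer counts pass a fixed fold more often through counting error.

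No very long loop was called higher in both comparisons (1.42% of all shared loops), and 5 were called lower in both (2.08%, against 1.35% of all shared loops and 2.98% of those of 250 to 500 kb). Of these, a loop of 875 kb to EFCAB11 had 20 counts in APH, 30 in DMSO, 20 in HU and 34 in H2O. A loop of 620 kb between AMN1 and BICD1, a dynein adaptor gene, had 14 in APH, 20 in DMSO, 14 in HU and 24 in H2O, and a loop of 585 kb to CUX1 had 15 in APH, 21 in DMSO, 12 in HU and 24 in H2O. The other 2, of 795 and 515 kb, had no gene on either anchor. Another 5 loops (2.08%, against 0.850% of all shared loops) were called in opposite directions, as the plot of single loops shows. These shares were not matched for counts either.

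**Figure D4:**
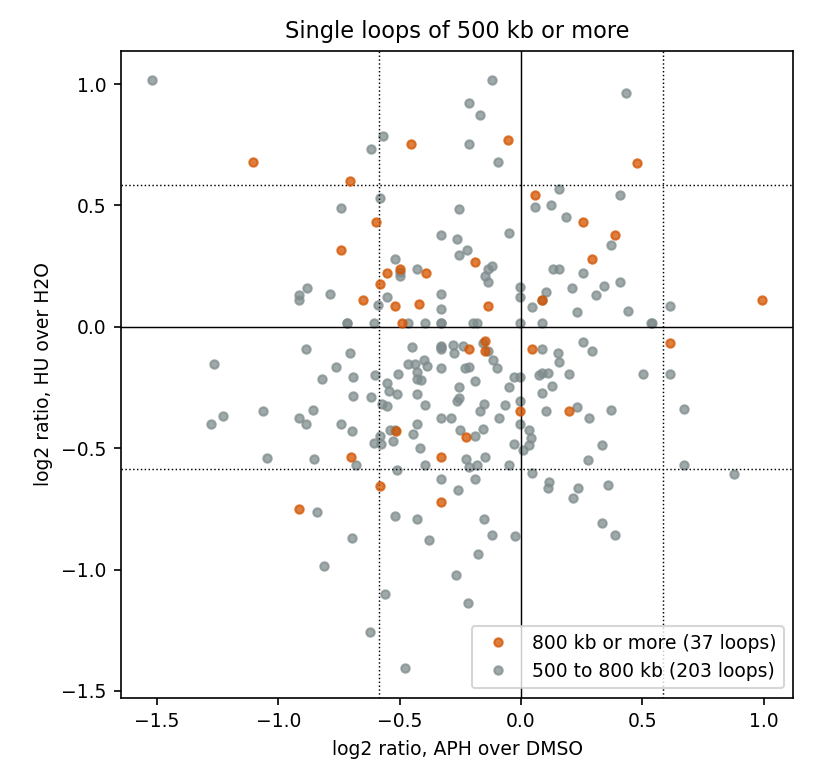
Log2 ratio for HU over H2O (y axis) against that for APH over DMSO (x axis) of the 240 loops of 500 kb or more listed in all 4 libraries, 1 point per loop, with dotted lines at a change of 1.5-fold. Points crowd the lower left, with 113 loops (47.1%) below 0 in both and 30 (12.5%) above 0 in both, against 30.0% and 27.2% of all shared loops. Of the 37 loops of 800 kb or more, 23 lie above 0 on the y axis.

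Among loops with at least 40 counts in the libraries compared, the lowest for APH over DMSO was a loop of 505 kb between SYNE2, which encodes a nuclear envelope protein of the nesprin family, and ESR2, which encodes oestrogen receptor beta. It had 14 counts in APH, 32 in DMSO, 28 in HU and 14 in H2O. This gave -1.52 (-2.54 to -0.57) for APH over DMSO and 1.02 (0.04 to 2.06) for HU over H2O, the highest of that comparison among such loops. The 2 vehicles differed here by -1.31 (-2.33 to -0.36) for H2O over DMSO, and with the vehicles exchanged the ratios were -0.21 for APH over H2O and -0.29 for HU over DMSO. Next for APH over DMSO were a loop of 610 kb near SNAI2, a transcription factor gene of epithelial to mesenchymal transition, with 14 counts in APH, 27 in DMSO, 18 in HU and 24 in H2O (-1.28, -2.32 to -0.29), and a loop of 735 kb to ADAT2, a tRNA-editing deaminase gene, with 15 in APH, 28 in DMSO, 23 in HU and 30 in H2O (-1.23, -2.24 to -0.27). At both, APH was the lowest of the 4 libraries. NSMCE2, which encodes a SUMO ligase of the SMC5/6 complex, a relative of cohesin, had 6 very long loops. Its 4 loops listed in all libraries had 113 counts in APH, 126 in DMSO, 94 in HU and 123 in H2O, with -0.48 (-0.86 to -0.11) for APH over DMSO and -0.37 (-0.78 to 0.03) for HU over H2O.

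Among the same loops, the highest ratio for APH over DMSO was at a loop of 850 kb from TMEM196, with 30 counts in APH, 12 in DMSO, 31 in HU and 29 in H2O. DMSO alone was low here, at the smallest count a list can hold, and the interval of the ratio, 0.99 (-0.01 to 2.09), included 0. A loop of 550 kb to SUN1, which encodes an inner nuclear membrane protein, followed, with 30 counts in APH, 13 in DMSO, 13 in HU and 20 in H2O (0.88, -0.10 to 1.94).

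For HU over H2O the lowest ratio with at least 40 counts was at a loop of 565 kb from the olfactory receptor gene OR2M4 to a bin 0.446 kb from SH3BP5L, with 27 counts in APH, 30 in DMSO, 22 in HU and 59 in H2O (-1.41, -2.18 to -0.68). H2O alone was high at this loop, and HU over DMSO was -0.55. A loop of 585 kb from MLLT3, a gene of the super elongation complex, to FOCAD had 27 counts in APH, 25 in DMSO, 18 in HU and 40 in H2O (-1.14, -2.03 to -0.30), and HU over DMSO was -0.57 (-1.53 to 0.36). The loop of 550 kb that ends on MARCKS, whose promoter is printed above, had 34 counts in APH, 40 in DMSO, 18 in HU and 39 in H2O (-1.10, -1.99 to -0.26). Here HU stood below the other 3 libraries, and HU over DMSO was -1.25 (-2.14 to -0.42). The highest after SYNE2 to ESR2 was the loop of 510 kb from HOXD8, with 22 counts in APH, 13 in DMSO, 27 in HU and 14 in H2O. Both drug libraries were above both vehicles at HOXD8, and the intervals of both ratios, 0.43 (-0.62 to 1.54) for APH over DMSO and 0.96 (-0.02 to 2.01) for HU over H2O, included 0.

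The longest loops listed in all libraries ended near NCAM1, a neural adhesion gene, at 995 kb (12 counts in APH, 15 in DMSO, 16 in HU and 15 in H2O), on TOP3B, a topoisomerase gene, at 985 kb (17 in APH, 22 in DMSO, 15 in HU and 22 in H2O), and on the zinc finger gene ZNF385D at 970 kb (17 in APH, 15 in DMSO, 12 in HU and 13 in H2O). The loop at TOP3B is part of a group of 15 very long loops around the immunoglobulin lambda locus (chr22:22026076-22922913), of which 11 span all of its annotated segments. The APH list held 14 of the 15, the DMSO list 4, the HU list 8 and the H2O list 8. Of these, 4 were listed in all libraries, with 81 counts in APH, 92 in DMSO, 106 in HU and 85 in H2O. They gave -0.51 (-0.96 to -0.06) for APH over DMSO and 0.33 (-0.09 to 0.76) for HU over H2O, so that APH had most of these loops in its list and fewest counts in those shared. No very long loop overlapped the immunoglobulin heavy chain or kappa loci. Spans are those of the reference build, and rearrangement of these loci in the line was not examined.

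Many of the loops shared an anchor and are not independent of each other. Of the 1465 anchor bins, 1118 carried 1 very long loop and the others up to 7, and 698 of the 982 loops shared a bin with another. The bin with 7 (chr1:234495001-234500000) lies 15.8 kb from TARBP1 and reached 515 to 605 kb. Its loops had 107 counts in APH, 111 in DMSO, 63 in HU and 139 in H2O, over 4 loops listed in APH, 5 in DMSO, 3 in HU and 6 in H2O. The main loop among them, of 585 kb, had 53 counts in APH, 39 in DMSO, 26 in HU and 41 in H2O. A bin near the lambda locus (chr22:22940001-22945000) had 6 loops, of which 6 were listed in APH, 3 in DMSO, 6 in HU and 5 in H2O. A bin on CFAP299 (chr4:80360001-80365000), a cilia gene, also had 6, of which 4 were listed in APH, 1 in DMSO, 1 in HU and 3 in H2O.

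Anchors of very long loops lay off genes more often than those of shorter loops. A protein-coding gene body covered 45.1% of the 1465 anchors (42.5 to 47.6), against 52.5% (51.2 to 53.8) for loops of 250 to 500 kb and 66.0% (65.4 to 66.6) for loops under 100 kb. A RefSeq promoter window overlapped 6.60% of the anchors, wholly or in part, against 8.29% for loops of 250 to 500 kb and 14.7% for loops under 100 kb. This leaves out chromosome 8, whose promoters were not used here. Neither anchor was on a gene in 303 loops (30.9%), against 19.3% of all listed loops. The sequence that the loops crossed was also poor in genes, with 2.80 protein-coding genes per Mb between the anchors, against 4.79 for loops of 250 to 500 kb and 7.59 for those under 100 kb. Even so, no gene lay wholly between the anchors in just 271 loops (27.6%), against 34.2% of loops of 250 to 500 kb and 76.0% of those under 100 kb. Shorter spans have less room for a whole gene.

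The share of very long loops differed widely between chromosomes. They were 4.98% (3.93 to 6.21) of the loops on chromosome 4, 4.01% (2.64 to 5.82) on X and 3.81% (2.53 to 5.50) on 18, but 0.845% (0.437 to 1.47) on 16 and 0.238% (0.0772 to 0.554) on 19, with 5 of 2103 loops. Chromosome 4 has 4.04 protein-coding genes per Mb and chromosome 19 has 24.8. Chromosome 22 had 3.69% at 8.88 genes per Mb. The lambda group gives 15 of its 32 very long loops.

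**Figure D5:**
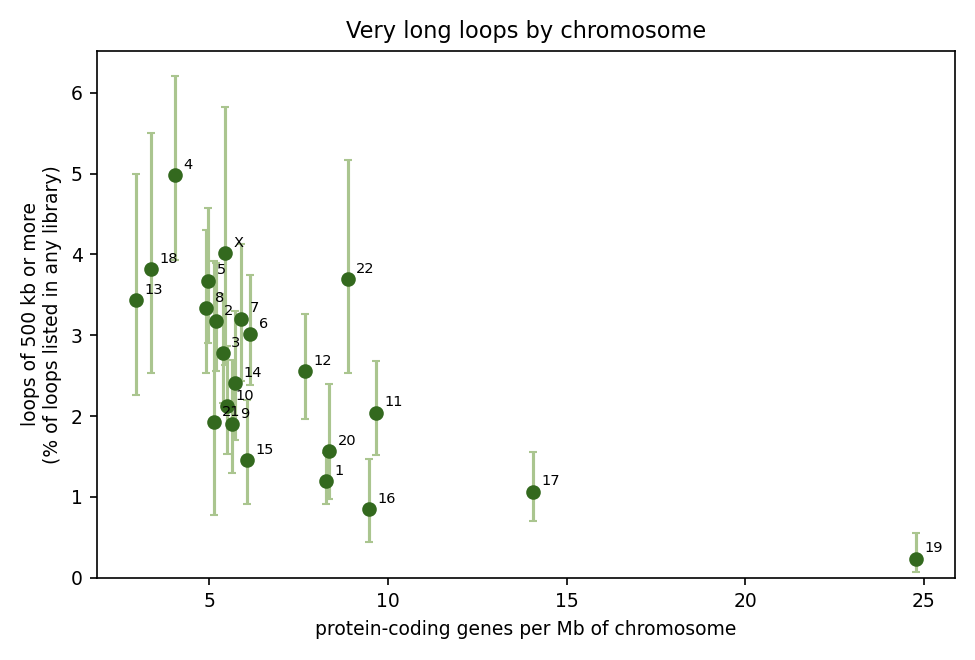
Share of loops of 500 kb or more among the loops listed in any library (y axis, %, with exact binomial intervals) against protein-coding genes per Mb (x axis), 1 point per chromosome. Chromosome 4 is highest at 4.98% and the gene-dense chromosome 19 lowest at 0.238%, while chromosome 22 lies above others of like gene density.

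Both anchors also carried a shorter listed loop in 28.6% of the very long loops of APH (24.9 to 32.5), 20.1% of DMSO (16.8 to 23.8), 21.3% of HU (17.7 to 25.2) and 24.8% of H2O (21.5 to 28.3). A path of shorter loops, each starting in the bin where the last ended, joined the anchors in 10.1% of them in APH, 9.39% in DMSO, 7.77% in HU and 11.1% in H2O. For loops of 250 to 500 kb it was much the same, at 12.05% in APH, 7.37% in DMSO, 8.38% in HU and 10.4% in H2O. With loops under 250 kb alone, such a path existed for 6 of 566 loops in APH, 2 of 522 in DMSO, 1 of 489 in HU and 8 of 641 in H2O. The span held a median of 3 shorter listed loops in APH, 2 in DMSO, 2 in HU and 3 in H2O, and up to 50. These shares depend on how many shorter loops each list holds, and APH has the longest list.

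Of all 19970 protein-coding genes, 514 (2.57%) had an anchor of a very long loop on the gene body, and the shared loops on them had -0.24 (-0.31 to -0.18) for APH over DMSO and -0.19 (-0.25 to -0.12) for HU over H2O. Among long genes such anchors were more frequent, on 71 of 314 genes of 500 kb or more (22.6%), with -0.26 (-0.39 to -0.13) for APH over DMSO and -0.19 (-0.32 to -0.05) for HU over H2O. Of 24 genes of common fragile sites, which are long genes that break when replication is slowed, 11 had very long loops (45.8%). Their 7 shared loops had 155 counts in APH, 140 in DMSO, 142 in HU and 148 in H2O, with -0.18 (-0.52 to 0.16) for APH over DMSO and -0.04 (-0.39 to 0.30) for HU over H2O. RAD51B, a recombination gene, had 6 such loops, and FHIT, a gene at a well-studied fragile site, had a loop of 645 kb with 33 counts in APH, 40 in DMSO, 32 in HU and 32 in H2O. In only 17 of the 982 loops did both anchors lie on 1 gene, among them PDE4D and the kinase gene PRKG1.

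Among 27 B cell transcription factor genes, BACH2, AFF3 and RUNX1 had very long loops (11.1%, against 2.57% of all protein-coding genes, or 11.5% against 5.43% among genes with a loop of any span). These genes span 370 kb, 597 kb and 262 kb, and the comparison was not matched for gene length. Of genes of 500 kb or more, which include AFF3, 22.6% had such an anchor. BACH2 is also counted among the fragile site genes above. BACH2, a repressor gene of B cell differentiation, had 4, the strongest of 535 kb with 42 counts in APH, 27 in DMSO, 26 in HU and 24 in H2O. The 4 shared loops of the 3 genes had 104 counts in APH, 72 in DMSO, 83 in HU and 76 in H2O, with 0.20 (-0.25 to 0.66) for APH over DMSO and 0.14 (-0.32 to 0.61) for HU over H2O, both with an interval that includes 0. None of 25 B cell surface and signalling genes had a very long loop, and none of 18 NF-kB or Epstein-Barr virus responsive genes, 31 replication and checkpoint genes, 22 clustered protocadherin genes, 29 ribosomal protein genes, 18 T cell genes or 16 myeloid and erythroid genes. At 2.57% of all genes, a list of this size holds 0 or 1 such gene at the background, so nothing is read from these zeros. The loops of any span on marker genes did not separate the cell types cleanly. Of 8 B cell markers, 5 had a loop in all 4 libraries, against 2 of 6 T cell and 0 of 6 myeloid and erythroid markers. Summed over its markers, the B cell list had 27 loops in APH, 14 in DMSO, 15 in HU and 24 in H2O, and the T cell list 19 in APH, 19 in DMSO, 16 in HU and 22 in H2O. Most of the T cell sum lay on TCF7, a transcription factor gene, with 14 in APH, 14 in DMSO, 14 in HU and 17 in H2O. The myeloid and erythroid list had 8 in APH, 1 in DMSO, 2 in HU and 1 in H2O, of which CSF1R, a cytokine receptor gene, had 6 in APH, 0 in DMSO, 1 in HU and 0 in H2O. Loops do not measure expression.

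Among 16 genes of cohesin, its regulators and CTCF, STAG1, PDS5A and PDS5B had very long loops (18.8%, against 2.57% of all protein-coding genes). They span 416 kb, 155 kb and 192 kb, and gene length was not matched here either. The PDS5 genes encode factors that help hold cohesin on chromatin or release it. The loop of 510 kb between LIAS and PDS5A had 15 counts in APH, 12 in DMSO, 12 in HU and 15 in H2O, and that of 955 kb from PDS5B to STARD13 had 12 in DMSO, 17 in HU and 16 in H2O and was not listed in APH. Of 39 HOX genes, 5 had very long loops (12.8%, against 2.57% of all protein-coding genes), namely HOXD8, HOXD12, HOXD13, HOXA13 and HOXB8. HOXD12 and HOXD13 share an anchor bin and have the same 2 loops. HOXA13 and HOXB8 had 1 loop each, the first listed in H2O alone and the other in HU and H2O. A loop of 730 kb that ends on HOXD12 and HOXD13, in the same cluster as HOXD8, had 21 counts in APH, 22 in DMSO, 22 in HU and 22 in H2O. Of 51 other developmental transcription factor genes, FOXC1 alone had a very long loop (1.96%, near the 2.57% of all genes), of 590 kb to GMDS, with 15 counts in DMSO and in no other list.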

How the data were processed

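SMC1 HiChIP was done on GM12878 cells, with 1 library each for APH, DMSO, HU and H2O. The deposited lists give, for each loop between 5 kb bins, a read count, an expected count and a p-value adjusted by the authors, per the values in the files, which reach 0.01 at most. The submitters' processing notes name hg38, bcl2fastq 2.17 and MACS3 3.0.1, and neither the aligner nor the loop caller is given in the sources used. The lists hold loops of 10 to 1000 kb with at least 12 counts and at least 2 times the expected count, and no loop outside these limits was seen. Raw counts were kept as deposited.

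Loops were matched between lists by identical bins. For ratios, counts were divided by the library's sum over the 9529 loops listed in all 4 libraries (376948 counts in APH, 300320 in DMSO, 322048 in HU and 325634 in H2O), with exact conditional binomial intervals at 95%. Shares have exact Clopper-Pearson intervals. A loop was called changed at a scaled ratio of 1.5-fold. The ratio code was tested on simulated data. With 1 library per group no p-value was computed, and the files give no reads outside the listed loops, so the full depth is unknown. Genes are the 19970 protein-coding genes of the RefSeq table, of the same build as the lists, and a gene was assigned to an anchor when its body overlapped the bin.

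The loops named were taken from the 10 with most counts, the 5 highest and 5 lowest ratios of each drug comparison among loops with 40 counts in both libraries together, the 3 with most counts listed in both drug libraries alone or both vehicles alone, the 3 longest listed in all 4, the 5 anchors with most very long loops, and loops on genes of the lists. Not all loops and anchors of these ranked sets are described. Loops at STAG1, SLC14A2, KCNQ5 and those called in both comparisons were named after their values were seen. Of the 10 loops with most counts, 2 are not reported here. The members and lists were chosen with earlier results of these data known. Alternatives were other scalings, spans, count limits, anchor matching and the other vehicle. Versions were Python 3.11.15, numpy 2.4.6, pandas 2.3.3, scipy 1.17.1, matplotlib 3.10.9 and networkx 3.6.1.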

Additional observations from a re-analysis of the deposited data

Results flagged for a closer look

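At the loop of 505 kb between SYNE2 and ESR2, the drug libraries differed from their vehicles in opposite directions, with -1.52 for APH over DMSO and 1.02 for HU over H2O on the log2 scale. At the loop of 550 kb between LOC107987545 and SUN1 they did so the other way, with 0.88 for APH over DMSO and -0.61 for HU over H2O. Each effect rests on 1 library per group, and the difference between the effects was not tested.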

How the results depend on the processing

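Of the alternatives for the main values, 41 stayed within the interval of the value as reported or within 1.5 times the count, and 31 moved. The pooled log2 ratio for APH over DMSO, -0.24 as reported, was -0.62 with scaling by all listed loops and -0.064 with scaling by shared loops of 250 to 500 kb. It was -0.074 with the summed counts divided by the summed expected counts. For HU over H2O, -0.16 as reported, it was -0.034 with scaling by loops of 250 to 500 kb and -0.073 for loops of at least 600 kb. For H2O over DMSO, -0.01 as reported, it was -0.25 with scaling by all listed loops and 0.13 with the summed expected counts. Scaling by all listed loops shifts every ratio by -0.38 for APH over DMSO, 0.05 for HU over H2O and -0.24 for H2O over DMSO. The log2 ratio of the shares of very long loops, APH over DMSO, was -0.52 as reported and -0.84 after thinning to equal counts.

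With both anchors allowed to differ by 1 bin, 66.8% of the very long loops of APH were listed in DMSO, 72.4% of those of DMSO in APH, 79.8% of those of HU in H2O, 67.7% of those of H2O in HU, 77.5% of those of HU in APH and 79.3% of those of DMSO in H2O. Among loops with 12 to 19 counts, an alternative chosen after seeing the data, these shares were 41.8% for APH in DMSO, 50.0% for DMSO in APH, 67.0% for HU in H2O, 44.6% for H2O in HU, 62.6% for HU in APH and 60.8% for DMSO in H2O.

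With scaling by all listed loops, 1 very long loop was called higher and 129 lower for APH over DMSO (0.798% and 31.6% of all shared loops), and 3 higher and 44 lower for H2O over DMSO (1.29% and 16.4% of all shared loops). In the 50 loops with at least 24 counts in every library, where fewer loops are tested, 0 were called higher and 10 lower for APH over DMSO (3.59% and 4.73% of all such loops), 0 higher and 3 lower for HU over H2O (5.6% and 5.45%), and 0 higher and 1 lower for H2O over DMSO (2.18% and 2.42%). Counting anchors within 5 kb of a gene body gave 51.8% on a gene. Against the other vehicle, also chosen after seeing the data, the loop of SYNE2 and ESR2 turned to -0.29 for HU and was -0.21 for APH, that of TMEM196 was -0.16 for APH and that of OR2M4 was -0.55 for HU. No paired analysis was possible because each group has 1 library. The cause of these shifts was not tested, beyond what the scalings fix by construction. Replicate spread is unknown, and at 12 to 20 counts a loop can be unlisted through counting error alone.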

Other observations

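A pair of related gene neighbourhoods, noticed after the values were seen, had very long loops of nearly the same span. SYNE1 and SYNE2 encode related nesprins, and ESR1 and ESR2 encode the oestrogen receptors alpha and beta. On chromosome 6, a loop of 500 kb between ESR1 and SYNE1 had 20 counts in DMSO, 15 in HU and 22 in H2O and was not listed in APH. A neighbouring loop of 505 kb between the same genes had 12 counts in DMSO, 13 in HU and 20 in H2O and was not listed in APH either. On chromosome 14, the loop of 505 kb between SYNE2 and ESR2 had 14 counts in APH, 32 in DMSO, 28 in HU and 14 in H2O.

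At a bin on chromosome 22 (chr22:34415001-34420000), 2 loops with a common left anchor differed in opposite ways between HU and H2O. The loop of 605 kb had 29 counts in HU and 16 in H2O, a log2 ratio of 0.87 (-0.05 to 1.85), and the loop of 735 kb had 18 in HU and 37 in H2O, a log2 ratio of -1.02 (-1.92 to -0.17). Over DMSO in place of H2O, HU had 0.67 (-0.24 to 1.63) at the loop of 605 kb and -0.45 (-1.43 to 0.50) at the loop of 735 kb.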
